A study of Mus musculus with 15 samples.

Results

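The T-cell receptor (TCR) complex and its first signalling proteins were followed here through 9 genes, Cd3d, Cd3e, Cd3g, Cd247, Lck, Zap70, Lat, Lcp2 and Cd28, and every probe set that the array annotation assigned to one of them was taken. This gave 15 of 45101 probe sets on the arrays of CD4+ T cells and 14 of 22690 on those of thymocytes, for 8 of the 9 genes; Lck was not analysed here. The study asked what N-ras and H-ras, both small GTPases of the Ras family, contribute to gene expression in immune cells of the mouse. CD4+ T cells were sorted by flow cytometry from the spleens of N-ras KO mice and of WT littermates aged 6 to 20 weeks, on the 129/SJ background, and were kept overnight with 1 µg/ml of antibodies to CD3e and CD28 (stimulated) or without them (unstimulated), with 3 arrays in each of the 4 groups. Thymocytes, which are T cells still developing in the thymus, were taken unstimulated from 1 N-ras KO, 1 H-ras KO and 1 WT mouse, with 1 array each; the labels give the same ages for them, and the methods give 6 weeks. Both KO lines lack their gene in every tissue, so the cells around the T cells lacked it too. The sorted cells were described both as divided between the 2 conditions and as coming from a different mouse for each condition, so the p-values below measure only the spread between these arrays.

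The receptor has no enzyme of its own. When it is bound, the kinase Lck phosphorylates motifs in the tails of the CD3 chains and of the zeta chain. The kinase Zap70 docks there and phosphorylates the scaffold Lat and the adaptor SLP-76. Lat then collects proteins through which Ras is switched on. CD28 is a co-stimulatory receptor that adds to this signal. The genes described here thus act upstream of Ras, and the antibodies used bind the products of Cd3e and Cd28.

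The values are log2 expression relative to a baseline: in CD4+ T cells the median of the 3 unstimulated arrays of each genotype was 0 on every probe set, and in thymocytes the median of the 3 arrays was 0. They hold differences and no brightness, so no gene's level could be set against another's and no marker could be called absent. Nras, checked first, went against the label of 2 of the CD4+ pairs. On the probe set 1454060_a_at, the library labelled N-ras KO 3 had Nras values of 2.09 stimulated and 2.04 unstimulated, with the other N-ras KO arrays between -0.04 and 0.51, and the library labelled WT 1 had -3.04 and -2.68, with the other WT arrays between -0.10 and 0.28. On the other 2 Nras probe sets N-ras KO 3 was also the highest of its groups (0.80 to 1.70), and WT 1 the lowest of its groups (-1.61 to -1.23), except that on 1422687_at stimulated WT 1 was at -0.14, between the other stimulated WT arrays (-0.19 and 0.38). In thymocytes Nras was lower in the N-ras KO than in the WT array by 1.81 to 2.46 log2 on its 3 probe sets; the gene of H-ras was not analysed here. Arrays with the same number and genotype deviated together over all probe sets (correlations of 0.361 to 0.738), and those numbered 3 were the widest of each genotype, with an SD over probe sets of 1.00 stimulated and 0.841 unstimulated for N-ras KO 3, and of 0.733 and 0.691 for WT 3. The responses are therefore also given by pair. The responses, the comparison of stimulated cells and the correlations between members are also given without the arrays numbered 3.

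No change of these genes after overnight stimulation passed the unpaired test in either genotype, and none passed an adjusted threshold with or without pairing. None of the 15 probe sets differed between stimulated and unstimulated cells at an adjusted p under 0.05 in N-ras KO or in WT cells (limma, adjusted by Benjamini-Hochberg across the whole array, adjusted p = 0.99999 and 0.999987), none did at an unadjusted p under 0.05, and none did by the methods' t-test. Over all 45101 probe sets, 0% were called at the adjusted threshold, and 2.58% in N-ras KO and 1.15% in WT cells at the unadjusted one, so a count of 0 among 15 lies near the background. The differences, stimulated minus unstimulated, ran from -0.43 to 0.42 log2 in N-ras KO cells (median -0.05, against 0.01 over all probe sets) and from -0.40 to 0.17 in WT cells (median -0.03, against 0.00). The sign of both medians turned without the arrays numbered 3, to 0.05 in N-ras KO and 0.03 in WT cells, and leaving out single arrays or pairs gave medians from -0.28 to 0.33 in N-ras KO and from -0.29 to 0.17 in WT cells. No mean difference reached 1.5-fold, the size the study asked for, in either genotype, where 13.6% of all probe sets did in N-ras KO and 8.9% in WT cells. Of the 90 differences within single pairs, 79 were under 1.5-fold and 11 were beyond it, all of these on probe sets of Cd247, Zap70 and Lcp2. The same cells carried the marks of a TCR signal. Of 10 genes known to be induced by it, 5 in N-ras KO and 7 in WT cells were higher at an unadjusted p under 0.05 (limma) and 1.5-fold on at least 1 probe set. These were 7 and 9 of 16 probe sets, where 2.34% and 1.04% of all probe sets passed. Egr2 (1427683_at), an early transcription factor, was at 5.40 log2 in N-ras KO and 2.55 log2 in WT cells. With 1 probe set per gene 9 were higher in each genotype and 1 was lower. The lower one was Tnfrsf9 (1421481_at), at -0.32 log2 in N-ras KO and -0.39 in WT cells, while its other probe sets were higher. None passed the adjusted threshold.

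**Figure D1:**
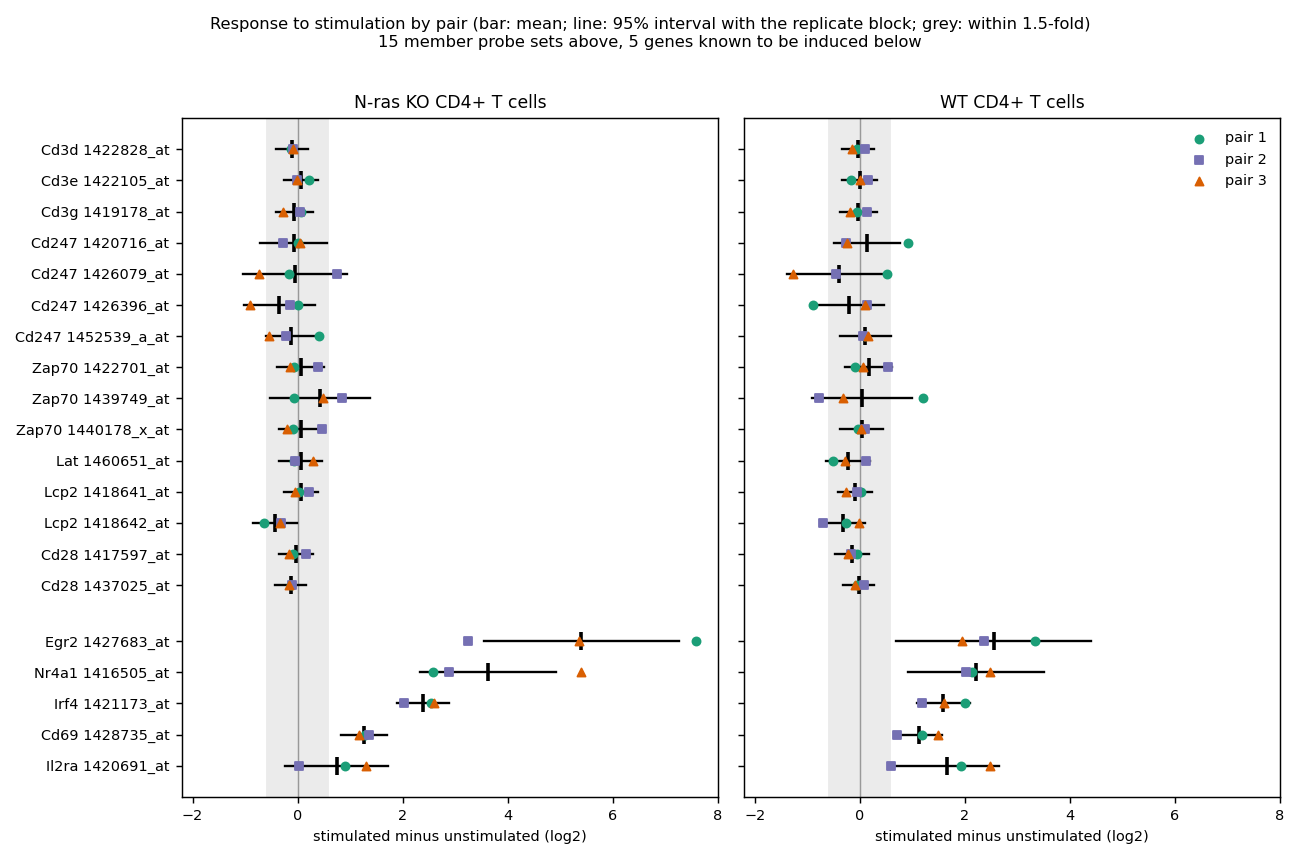
Stimulated minus unstimulated log2 expression (x axis) for the 15 member probe sets and, below them, 5 genes known to be induced by TCR signalling, in N-ras KO cells (left) and WT cells (right); points are single pairs of arrays, bars the mean of 3 pairs, lines the 95% interval of a fit with the pairs as blocks, and the grey band marks less than 1.5-fold. The member means lie between -0.43 and 0.42 in both panels. Of the 5 induced genes Egr2 is the widest, at 5.40 in N-ras KO and 2.55 in WT cells, and Il2ra lies at 0.75 and 1.66.

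How small a change the arrays could have shown depended on the pairing. In the unpaired fit that the methods imply, the 95% interval of the response stayed within 1.5-fold for 2 probe sets in N-ras KO cells and 3 in WT cells (12.7% and 13.8% of all probe sets). With the pairs as blocks it did so for 9 in N-ras KO cells (32.1% of all) and 7 in WT cells (34.9%). For the other probe sets the interval reached past 1.5-fold, so a change of that size was not excluded with 3 arrays per group. All 3 pairs had the same sign for 3 of 15 probe sets in N-ras KO and 3 of 15 in WT cells, where 26.6% and 28% of all probe sets did.

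The CD3 chains are the invariant signalling subunits that carry the receptor's phosphorylation motifs. Cd3d (1422828_at) had values of -0.13, -0.04 and -0.58 in stimulated N-ras KO cells, against 0.00, 0.06 and -0.50 in unstimulated ones. In WT cells Cd3d had -0.05, 0.01 and 0.47 stimulated, against 0.00, -0.10 and 0.61 unstimulated. The groups overlapped in both genotypes, and array 3 was the lowest of each N-ras KO group and the highest of each WT group. The response of Cd3d was -0.10 ± 0.02 log2 over the N-ras KO pairs, lower in 3 of 3, and -0.03 ± 0.12 over the WT pairs (SD, n = 3 each). Cd3g (1419178_at) had 0.06, 0.28 and -1.10 in stimulated and 0.00, 0.24 and -0.82 in unstimulated N-ras KO cells. In WT cells its values were -0.05, -0.30 and 0.92 stimulated and 0.00, -0.45 and 1.11 unstimulated. Its groups overlapped as well, with array 3 standing apart in the same directions as for Cd3d, and its response was -0.06 ± 0.19 in N-ras KO and -0.03 ± 0.17 in WT pairs. Cd3e (1422105_at), whose product the stimulating antibody binds, had 0.10, -0.01 and 0.42 in stimulated N-ras KO cells and -0.12, 0.00 and 0.44 in unstimulated ones. In WT cells Cd3e had 0.22, 0.15 and -0.17 stimulated and 0.38, 0.00 and -0.17 unstimulated. Here array 3 was the highest of each N-ras KO group and the lowest of each WT group, opposite to Cd3d and Cd3g. Its response was 0.06 ± 0.14 in N-ras KO and -0.00 ± 0.15 in WT pairs.

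The CD3 genes lie next to each other on chromosome 9, with Cd3d and Cd3g transcribed away from each other from starts 1355 bases apart and Cd3e starting 27825 bases beyond Cd3d. Their upstream sequences are shown because Cd3d and Cd3g shifted together between arrays while Cd3e shifted the other way, a pattern that rested on the arrays numbered 3. The 250 bases before each start are from RefSeq (GRCm38.p6), at chr9:44981536-44981785 on the plus strand for Cd3d, chr9:44980432-44980681 on the minus strand for Cd3g and chr9:45009612-45009861 on the minus strand for Cd3e. Capitals mark matches on either strand to an ETS core (GGAAG) or an E-box (CAGNTG); matches to a RUNX site (TGTGGT) and a TATA box (TATAAA) were searched in the same way.
Cd3d: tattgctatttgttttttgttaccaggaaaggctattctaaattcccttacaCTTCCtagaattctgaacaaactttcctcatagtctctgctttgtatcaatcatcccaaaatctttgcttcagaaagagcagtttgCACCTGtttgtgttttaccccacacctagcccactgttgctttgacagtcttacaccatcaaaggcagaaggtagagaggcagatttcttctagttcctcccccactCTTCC
Cd3g: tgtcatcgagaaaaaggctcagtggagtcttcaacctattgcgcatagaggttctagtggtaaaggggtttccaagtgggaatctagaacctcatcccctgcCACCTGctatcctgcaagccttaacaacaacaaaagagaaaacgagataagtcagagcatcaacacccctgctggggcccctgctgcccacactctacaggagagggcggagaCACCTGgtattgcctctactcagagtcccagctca
Cd3e: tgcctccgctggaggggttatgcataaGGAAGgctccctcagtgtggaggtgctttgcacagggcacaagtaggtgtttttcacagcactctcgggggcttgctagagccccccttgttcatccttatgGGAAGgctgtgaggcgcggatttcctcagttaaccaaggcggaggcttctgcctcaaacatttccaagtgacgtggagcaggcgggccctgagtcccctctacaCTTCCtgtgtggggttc
Cd3d held 2 ETS cores and 1 E-box, Cd3g held 2 E-boxes and no ETS core, and Cd3e held 3 ETS cores and no E-box; none of the 3 held the RUNX or TATA letters. Among 32851 promoter windows of this length in the same table, 64.1% held an ETS core, 44.8% an E-box, 14% a RUNX site and 12.4% a TATA box. A match describes letters in the window and shows neither binding nor a cause of the shifts.

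Cd247 encodes the zeta chain, the subunit with the most phosphorylation motifs, and was read by 4 probe sets, of which 1420716_at had the widest spread between WT pairs of all members (SD 1.45 log2). The probe set 1420716_at had 0.01, -0.22 and -1.76 in stimulated and 0.00, 0.07 and -1.80 in unstimulated N-ras KO cells. In WT cells it had 0.92, -1.21 and 1.70 stimulated and 0.00, -0.96 and 1.94 unstimulated. The groups overlapped, and pair means differed by up to 2.91 log2 in WT cells while the response averaged -0.08 ± 0.18 in N-ras KO and 0.14 ± 0.67 in WT pairs. The responses on the other probe sets were -0.05, -0.35 and -0.12 in N-ras KO cells (1426079_at, 1426396_at and 1452539_a_at) and -0.40, -0.21 and 0.10 in WT cells. Across the 12 arrays these probe sets of 1 gene correlated with each other at r between 0.08 and 0.87, so they did not all report the same quantity.

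Zap70, the kinase that docks on the phosphorylated chains, had 3 probe sets. On 1422701_at the values were -0.06, 0.58 and -1.04 in stimulated and 0.00, 0.20 and -0.89 in unstimulated N-ras KO cells. In WT cells they were -0.46, 0.54 and 0.73 stimulated and -0.37, 0.00 and 0.66 unstimulated. The groups overlapped, and the response was 0.06 ± 0.28 in N-ras KO and 0.17 ± 0.33 in WT pairs. The highest mean of any member in N-ras KO cells was that of 1439749_at, 0.42 ± 0.47, with pairs at -0.07, 0.85 and 0.49, but the same probe set averaged 0.04 ± 1.04 in WT pairs. The third, 1440178_x_at, is of a type that can cross-hybridize and averaged 0.06 and 0.04. Lat (1460651_at), the membrane scaffold that Zap70 phosphorylates, had 0.05, -0.04 and -0.73 in stimulated and 0.11, 0.00 and -1.02 in unstimulated N-ras KO cells. In WT cells Lat had -0.998, 0.12 and 0.36 stimulated and -0.50, 0.00 and 0.63 unstimulated. Its groups overlapped in both genotypes, and the response was 0.06 ± 0.20 in N-ras KO and -0.22 ± 0.32 in WT pairs.

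Lcp2 encodes SLP-76, the adaptor that joins Lat to phospholipase C gamma, and 1 of its 2 probe sets was the only one of the 15 whose value was lower in all 6 pairs. On 1418642_at stimulated N-ras KO cells had -0.87, -0.31 and -0.25, against -0.23, 0.00 and 0.10 in unstimulated ones. These groups narrowly did not overlap (4.93% of all probe sets did not overlap in N-ras KO and 4.39% in WT cells). In WT cells the values were 0.08, -0.69 and -0.40 stimulated and 0.34, 0.00 and -0.39 unstimulated, and the groups overlapped. The response was -0.43 log2 in N-ras KO and -0.32 log2 in WT cells, each with a standard error of 0.28, an unadjusted p of 0.150 and 0.277 from limma, and an adjusted p of 0.99999 and 0.999987. With the pairs as blocks its unadjusted p in N-ras KO cells was 0.0469 and its adjusted p 0.699 by limma, and it was the only member under 0.05, where 7.1% of all probe sets were; no member was under 0.05 in WT cells (4.3% of all) or for the difference of the responses (4.58%). Without the arrays numbered 3 the values were -0.48 in N-ras KO and -0.47 in WT cells. The other Lcp2 probe set, 1418641_at, did not show this: its response was 0.07 ± 0.13 in N-ras KO and -0.09 ± 0.14 in WT pairs, and the 2 probe sets correlated at r = -0.21 over the 12 arrays.

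Cd28, the co-stimulatory receptor, had the narrowest values of all members. On 1417597_at they were -0.03, 0.12 and -0.17 in stimulated and 0.06, -0.04 and 0.00 in unstimulated N-ras KO cells. In WT cells they were -0.05, -0.35 and -0.01 stimulated and 0.00, -0.18 and 0.22 unstimulated. The groups overlapped, although all 3 WT pairs were lower, and the response was -0.03 ± 0.17 in N-ras KO and -0.15 ± 0.09 in WT pairs. On 1437025_at all 3 N-ras KO pairs were lower (-0.13 ± 0.03), and WT pairs averaged -0.02 ± 0.09. The 95% interval of the paired fit lay within 1.5-fold for both Cd28 probe sets in both genotypes.

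**Figure D2:**
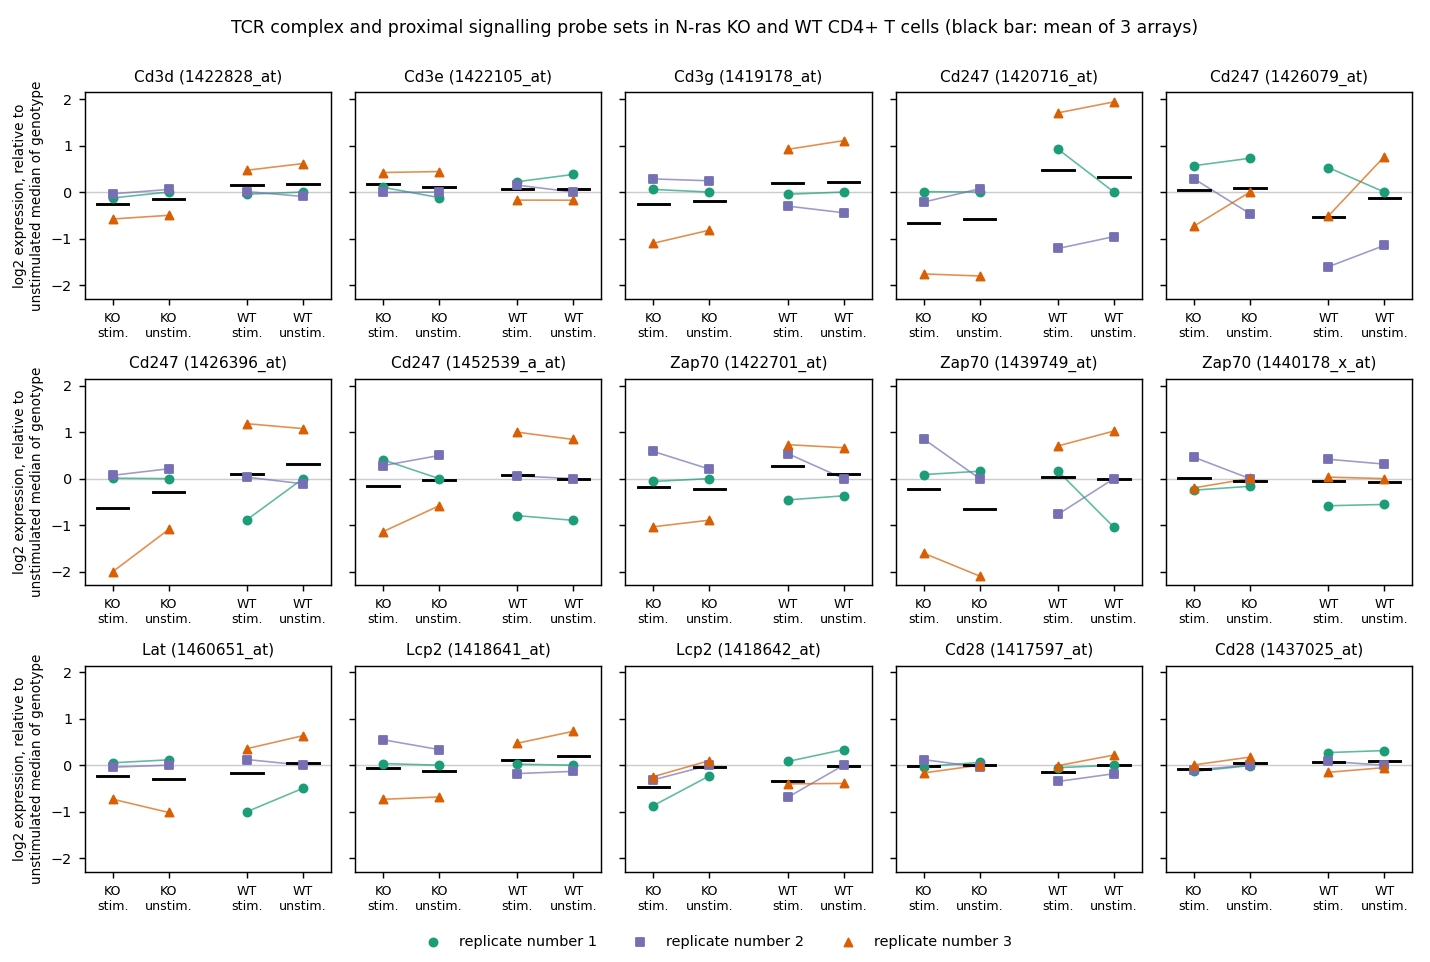
Log2 expression of each of the 15 member probe sets in every CD4+ T-cell array (y axis, relative to the median of the genotype's unstimulated arrays), in stimulated and unstimulated N-ras KO and WT cells; lines join arrays of the same number and black bars are means of 3. Array 3 (triangles) lies lowest in N-ras KO and highest in WT cells for Cd3d, Cd3g, Zap70 (1422701_at) and Lat, and highest in N-ras KO and lowest in WT cells for Cd3e.

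No difference between the genotypes in the response of these genes passed a test. The difference of the responses, N-ras KO minus WT, ran from -0.23 log2 on Cd247 1452539_a_at to 0.38 on Zap70 1439749_at, with a median of -0.03 against 0.01 over all probe sets. None of the 15 passed an adjusted p under 0.05 (limma, interaction contrast, adjusted p = 0.999921 for each) or an unadjusted p under 0.05, where 0% and 1.3% of all probe sets did, and none reached 1.5-fold, where 19.3% did. The precision was low: no 95% interval lay within 1.5-fold in the unpaired fit (1.12% of all probe sets), and 5 of 15 did with the pairs as blocks (9.88% of all), namely both probe sets of Cd28 and those of Cd3d, Cd3e and Cd3g.

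Stimulated N-ras KO cells were also set against stimulated WT cells, the comparison that the study made. Because each genotype was set to 0 on its own unstimulated arrays, this compares 2 distances from separate baselines and not 2 levels. The N-ras KO value was the lower on 11 of 15 probe sets and the higher on 4, with a median difference of -0.15 log2 against 0.03 over all probe sets. The most negative was Cd247 1420716_at, at -1.13 log2 (standard error 0.93, unadjusted p = 0.253, adjusted p = 0.766, limma), and the most positive Cd247 1426079_at, at 0.57 log2. Only Cd247 1420716_at and 1426396_at (-0.75 log2) reached 1.5-fold, as 25.8% of all probe sets did. No member passed an unadjusted p under 0.05 by limma (7.6% of all) or by the methods' t-test, and the 95% interval lay within 1.5-fold for 2 probe sets (9.7% of all), while the adjusted p ranged from 0.732 to 0.976. Marker lists of other cells were set beside this comparison. Of the neutrophil markers 7 of 8 were higher in N-ras KO cells (median 1.44 log2). At an unadjusted p under 0.05 (limma) and 1.5-fold 2 of them passed, as 6.9% of all probe sets did. Means over the list were 1.73, 1.01 and -0.58 in stimulated N-ras KO and 0.29, -1.88 and -0.27 in stimulated WT cells. B-cell markers were higher on 5 of 5 genes (median 0.54) and CD8 markers lower on 2 of 2 (median -0.62). Macrophage and dendritic cell markers were lower on 4 of 6 (median -0.66). NK and cytotoxic markers were higher on 3 of 5 (median 0.55) and erythroid markers on 2 of 2 (median 0.34). No marker passed an adjusted p under 0.05 (limma). Their part in the differences of the TCR genes was not tested.

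The sign of this comparison rested on the arrays numbered 3. Without them the median over the 15 was 0.25 log2, 11 probe sets were higher in N-ras KO cells and 4 lower, and Cd247 1420716_at lay at 0.04. Past 1.5-fold were 3 others, Cd247 1426079_at (0.97 log2) and 1452539_a_at (0.71) and Zap70 1439749_at (0.77). The lowest adjusted p was then 0.507. Without the libraries labelled N-ras KO 3 and WT 1, whose Nras values went against their labels, the median was -0.12 and Cd247 1420716_at was at -0.35. Cd247 1426079_at, at 1.49 log2, was the only one then past 1.5-fold (adjusted p = 0.746 or higher for all members). Leaving out both WT 2 arrays brought Cd247 1420716_at to -1.97 log2 and past the unadjusted threshold, with an adjusted p of 0.832.

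**Figure D3:**
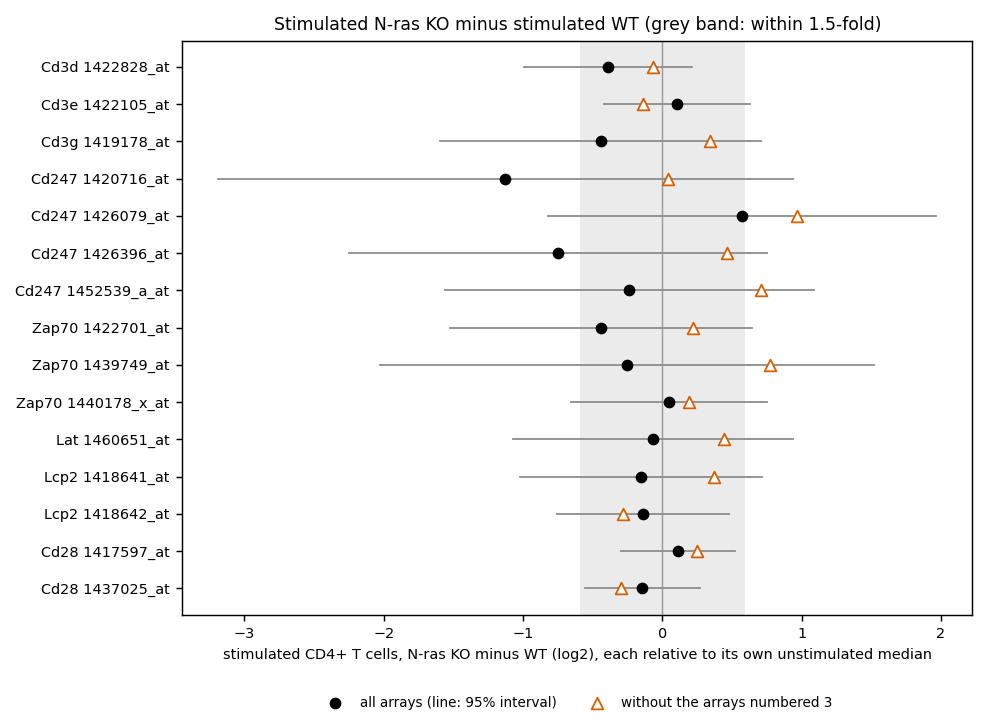
Difference between stimulated N-ras KO and stimulated WT cells in log2 (x axis) for the 15 member probe sets with all arrays (black, with the 95% interval of the unpaired limma fit) and without the arrays numbered 3 (open triangles); the grey band marks less than 1.5-fold. The median lies at -0.15 with all arrays and at 0.25 without those numbered 3.

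On most of these probe sets the spread between pairs of a genotype exceeded the difference within pairs. The 2 measures are unlike and do not split the variance, and neither was taken without the arrays numbered 3. In N-ras KO cells the SD between pairs exceeded the mean absolute difference within pairs on 10 of 15 probe sets (66.7%, against 49.1% of all probe sets), and in WT cells on 14 of 15 (93.3%, against 55.6%). The median SD between pairs was 0.525 log2 in N-ras KO and 0.560 in WT cells, and the median difference within pairs 0.140 and 0.150. On 9 of 15 probe sets, of Cd3d, Cd3g, Cd247, Zap70, Lat and Lcp2, array 3 was below both other numbers in both conditions in N-ras KO cells and above both in WT cells, as on 11.5% of all probe sets. On 2, of Cd3e and Cd28, it was the other way round (18.5% of all). The first pattern was seen on 26 of 104 probe sets (25%) of the other pathway genes listed below, and the reverse on 23 (22.1%). By list the first ran from 8.33% for enzymes and scaffold proteins below Lat to 57.1% (4 of 7) for the other co-stimulatory receptors. Other surface partners of the receptor were at 35.7%. Cd4 (1419696_at), the gene of the protein used for sorting, had the first pattern too. Its values were -1.09 and -0.79 in N-ras KO 3 and 0.92 and 0.97 in WT 3, stimulated and unstimulated, while its other probe set (1427779_a_at) did not show it. Averages over marker lists of other cells also differed between the numbers. B-cell markers averaged 1.496 stimulated and 1.15 unstimulated in N-ras KO 3, with 0.24 or less in the other N-ras KO arrays, and 0.84 and 0.51 in WT 3, with 0.27 or less in the other WT arrays. Single B-cell genes were uneven in WT 3, with Blk at 1.58 stimulated and 1.71 unstimulated but Pax5 (1421765_at) at -0.21 and -0.35. Neutrophil markers were lowest in WT 2, at -1.88 and -2.05, while in N-ras KO 2 they were at 1.01 and 0.14. Their part in the shifts of the TCR genes was not tested, and fewer T cells in a sample cannot be told apart from less of an mRNA per cell.

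Across the 12 arrays, the genes (1 probe set each) moved as 2 sets. Cd3d, Cd3g, Cd247, Zap70, Lat and Lcp2 correlated with each other at r between 0.53 and 0.95, the highest being Cd3d with Cd3g. Cd3e correlated with all 6 of them at r between -0.87 and -0.68, and Cd28 (1417597_at) at r between 0.22 and 0.61. The sign for Cd28 depended on the probe set: 1437025_at correlated with the 6 at r between -0.71 and -0.23 and with Cd3e at 0.69. Some of the 6 depended on it too. Lcp2 1418642_at correlated with Cd3d at r = -0.22 and with Cd3e at 0.40. Cd247 1426079_at and Zap70 1440178_x_at correlated with Cd3d at only 0.21 and 0.11. The remaining probe sets, Cd247 1426396_at and 1452539_a_at and Zap70 1439749_at, did so at 0.93, 0.77 and 0.80. These correlations describe arrays that share genotype, number and baseline. Without the arrays numbered 3, over 8 arrays, the 6 genes correlated at r between -0.70 and 0.87, Cd3d with Cd3g at 0.31, and Cd3e with the 6 at r between -0.66 and 0.21. The sets thus rested on those 4 arrays and on the probe set taken for each gene.

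**Figure D4:**
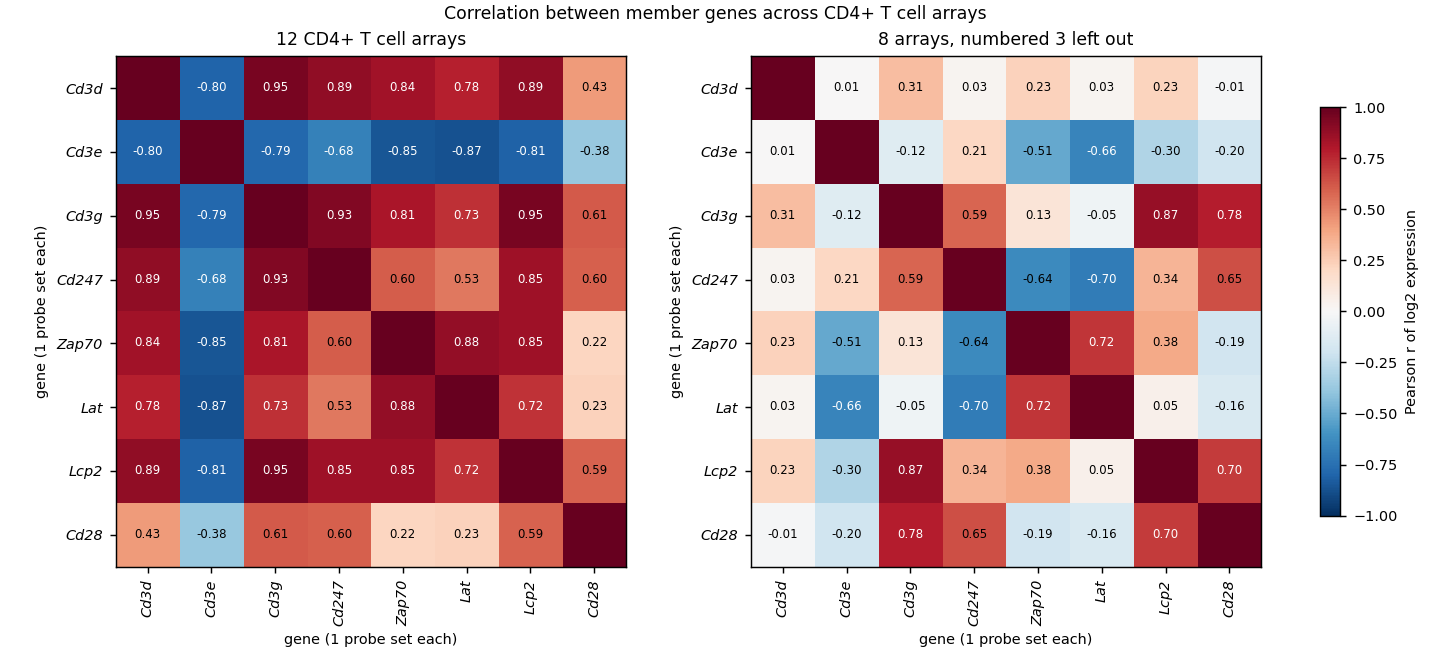
Pearson correlation of log2 expression between the 8 member genes (both axes, 1 probe set each) over all 12 CD4+ T-cell arrays (left) and over the 8 arrays not numbered 3 (right). Cd3d and Cd3g stand at 0.95 on the left and 0.31 on the right, and Cd3e with Cd3d at -0.80 and 0.01.

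The probe sets of other genes most like each member over the 12 arrays did not belong to the pathway, apart from Cd27, a co-stimulatory receptor of T cells, which was the most like Cd3g (r = 0.99). Zfp445 was the most like Cd3d (r = 0.99), Slc38a1 the most like Cd3e (0.99), Ssu72 the most like Cd247 (0.98), Tert the most like Zap70 (0.99), Chrac1 the most like Lat (0.98), Mocs2 the most like Lcp2 (0.98) and D4Ertd617e the most like Cd28 (0.95). Such likeness was common. A correlation above 0.9 with Cd3d was found for 2041 of the other 45100 probe sets (4.53%), and with Cd3g for 1601 (3.55%), but with Cd28 for 4. For the other members the share ran from 0.539% for Lat to 1.54% for Lcp2.

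The wider pathway gave few differences. Of 50 further genes, 48 were on the CD4+ arrays with 104 probe sets, and none passed an adjusted p under 0.05 in any of the 4 comparisons (limma). At an unadjusted p under 0.05 and 1.5-fold, 2 of 48 genes were lower and none higher in stimulated than in unstimulated N-ras KO cells (1.92% of probe sets, against 2.34% of all). These were Plcg1, the phospholipase that Lat recruits, at -1.06 log2 on 1442963_at (its other 2 probe sets were at 0.03 and -0.23), and Cd8a, the co-receptor of CD8 T cells, at -1.05 on 1440811_x_at (its other 4 were at -1.12 to 0.21). The CD8 markers together differed by -1.73, -0.85 and -0.25 log2 in the 3 N-ras KO pairs and by -0.28, -0.34 and 0.36 in the WT pairs; their part in the result was not tested. In WT cells 1 gene, Sla, an adaptor that dampens receptor signalling, was higher, at 0.62 log2 on 1420818_at, with 0.18, -0.03 and 0.19 on its other 3 probe sets (0.962% of probe sets, against 1.04% of all). No gene passed for the difference of the responses, where 1.29% of all probe sets did. Between stimulated N-ras KO and WT cells 1 gene was higher, Themis, a thymocyte selection protein (1.39 log2 on 1439719_at, with -0.14 to 1.12 on its other 3), and 1 was lower, Cd8a (-1.29 on 1440811_x_at, with -0.82 to 0.00 on its other 4), where 6.9% of all probe sets passed. None of the 6 other kinases, 8 brakes and 5 co-stimulatory receptors passed for either response.

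In thymocytes the genes of the receptor complex stood close together across the 3 genotypes. None of 14 probe sets reached 1.5-fold between the N-ras KO and WT arrays, the H-ras KO and WT arrays, or the KO arrays, where 2.64%, 2.97% and 2.42% of all probe sets did; with 1 array per genotype there is no test, and a count of 0 among 14 lies near these shares. The N-ras KO array was at or above the WT array on all CD3 chains, by 0.14 log2 for Cd3d, 0.00 for Cd3e and 0.12 for Cd3g, while the H-ras KO array differed from WT by 0.11, -0.05 and -0.03. Cd247 differed from WT by 0.05 in the N-ras KO and 0.27 (1.203-fold) in the H-ras KO array on 1420716_at, and by -0.14 and -0.06 on 1452539_a_at. Lat differed by -0.03 and 0.11 and Lcp2 (1418641_at) by -0.00 and -0.08 in the arrays of N-ras KO and of H-ras KO thymocytes. Cd28 differed from WT on 1417597_at by 0.27 log2 (1.209-fold) in the N-ras KO array and -0.02 in the H-ras KO array, and by -0.29 (1.227-fold) between the H-ras KO and N-ras KO arrays, the widest difference of the 3 comparisons, and its other probe set was at 0.11 and -0.02. The 2 KO comparisons share the WT array. On 4 probe sets, both of Zap70 and 1426079_at and 1426396_at of Cd247, the value was 0 on all 3 arrays, as on 5379 of 22690 probe sets, so no difference can be read from them.

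**Figure D5:**
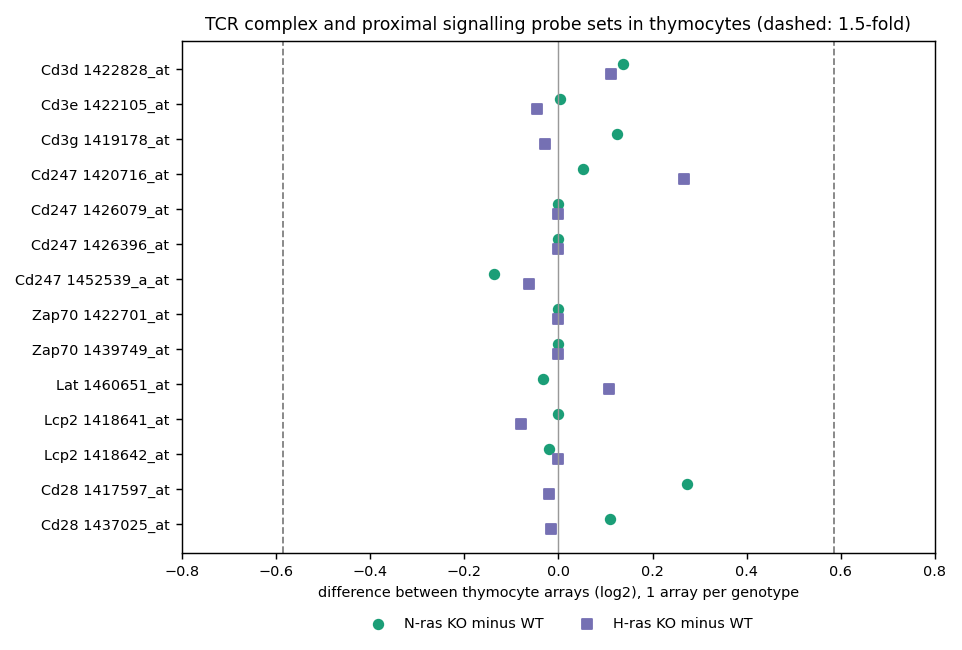
Difference in log2 expression (x axis) of the N-ras KO (circles) and H-ras KO (squares) thymocyte array from the WT array for the 14 member probe sets, with 1 array per genotype and dashed lines at 1.5-fold. All points lie between -0.14 and 0.27, and 4 probe sets are at 0 in both comparisons.

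Of the other pathway genes, 40 were on the thymocyte arrays with 62 probe sets. In the N-ras KO array 2 probe sets were past 1.5-fold higher than WT, of Rasgrp1 (0.61 log2 on 1431749_a_at, with 0.22 and 0.37 on its others), the exchange factor that activates Ras in thymocytes, and of Cbl (0.59 on 1455886_at, with 0.25 on its other), a ubiquitin ligase, and 1 was lower, of the inhibitory receptor Ctla4 (-1.16). In the H-ras KO array none was higher and 3 were lower, of Ctla4 (-1.29) and of Icos (-0.73 and -0.89 on its 2 probe sets), a co-stimulatory receptor. Both lists of differences came to 4.84% of probe sets, against 2.64% and 2.97% of all. The 8 neutrophil markers, of which 6 were past 1.5-fold lower in each KO array, had medians of -1.43 in the N-ras KO and -1.81 in the H-ras KO array against WT. B-cell markers had medians of 0.19 in the N-ras KO array, with 1 of 5 genes past 1.5-fold higher, and -0.46 in the H-ras KO array, with 2 of 5 lower. Of 5 NK and cytotoxic markers 1 was lower in the H-ras KO array, Nkg7 (-0.93). Their part in these differences was not tested.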

How the data were processed

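The authors deposited log2 expression values of Affymetrix probe sets. They had summarised the scans with the RMA-16 algorithm in GeneSpring GX11, quantile normalized them and shifted each probe set to the median of the control arrays. RNA of low yield was amplified first, on which arrays is not stated. As checked here, that median is 0 on all 45101 CD4+ probe sets in the unstimulated groups and on all 22690 thymocyte probe sets, so brightness is lost. The methods name 1 array type for both. GEO's annotation, updated through RefSeq, gave 1 gene for 34958 and 20393 probe sets. All probe sets of the 9 genes are named. Of the pathway lists, up to 3 genes per comparison were named among those at an unadjusted p under 0.05 and 1.5-fold with groups that do not overlap, and up to 4 past 1.5-fold in thymocytes. Cd8a in stimulated cells, Cd4, Nkg7 and the other probe sets of named pathway genes were given after their values were seen. The members and lists were chosen with earlier results of these data known.

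Contrasts were fitted over all 12 CD4+ arrays without a block, since the methods name an unpaired test, with limma (3.58.1, on R 4.3.3; lmFit, eBayes, two-sided) and Benjamini-Hochberg adjustment. The methods' t-test was an alternative. The fit was tested on simulated data. Replicate numbers paired the arrays within a genotype (correlations of 0.361 to 0.738, and 12 of 12 arrays matched their own number best) but not across genotypes (-0.621 to -0.117). The other alternatives were blocks by number, quantile normalization, centring, array weights, fits of 2 groups, fewer probe sets and leaving out arrays. Leaving out those numbered 3 was chosen after seeing the data. Promoter windows are from RefSeq.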

Additional observations from a re-analysis of the deposited data

How the results depend on the processing

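No member probe set passed the adjusted threshold under any alternative run (lowest adjusted p 0.507, limma), and 246 of 1331 single values changed sign, all of them uncalled. The median over the 15 probe sets of the response in N-ras KO cells was -0.05 and became 0.05 (0.0483) without both N-ras KO 3 arrays. Leaving out the libraries labelled N-ras KO 3 and WT 1, or the arrays numbered 3, keeps the same N-ras KO arrays. Those settings therefore give the same value by construction and are not separate checks of this response. Without the arrays numbered 3, the median response in WT cells was 0.03 and the median difference of the responses 0.11. Leaving out single arrays or pairs gave medians from -0.28 to 0.33 for the response in N-ras KO cells, from -0.29 to 0.17 in WT cells, from -0.18 to 0.32 for the difference of the responses and from -0.45 to -0.01 for stimulated N-ras KO minus WT cells. Leaving out 1 array of a pair breaks the pairing, and the arrays numbered 3 then weigh on 1 side only. Over these settings 0 to 1 member passed an unadjusted p under 0.05 and 1.5-fold between stimulated N-ras KO and WT cells; the 1 was Cd247 1420716_at without both WT 2 arrays. The replicate block by number within genotype changes only the standard errors of the responses, so their medians could not differ from those without it. Since no mean response reached 1.5-fold, the count at an unadjusted p under 0.05 and 1.5-fold could only stay at 0. With this block no member passed the adjusted threshold, and Lcp2 1418642_at had an unadjusted p of 0.0469 in N-ras KO cells (limma). The block could not be fitted for stimulated N-ras KO minus WT. In thymocytes 0 of 14 probe sets passed at 1.5-fold or 2-fold under each alternative run. Precision is limited by 3 arrays per group, by 1 per genotype in thymocytes, and by the lost brightness, which leaves dim probe sets in.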
